A study of Mus musculus with 18 samples.

Results

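The proximal tubule of the kidney takes filtered amino acids back from the urine with a small set of transporters, and the transcripts of 10 of their genes were followed here. They were chosen by name: Slc6a19, Slc6a18, Slc3a1, Slc7a9, Slc7a13 and Slc1a1, whose proteins stand in the apical membrane that faces the urine or pair with one that does, and Slc3a2, Slc7a7, Slc7a8 and Slc6a13, whose proteins act at the basolateral membrane. All 10 were found among the 19545 entries of the expression table, and all 10 passed the filter on low values that left 12682 genes for testing. The series holds RNA-seq of 18 kidney samples, 3 in each of 6 groups, from 10-week-old ICR mice. Besides the controls, one group received AOS at a dose of 10 mg/kg (named AOS), one received STZ, and one received STZ together with AOS at the same dose (STZ+AOS). In the other groups STZ was combined with an FMT labelled AOS10mg/kg (STZ+AOS-FMT) or with an FMT labelled control (STZ+control-FMT). STZ is the usual short form of streptozotocin, which kills pancreatic beta cells, and FMT that of faecal microbiota transplantation. No label spells AOS out, and the labels give neither sex nor the time from STZ to sampling, and no blood glucose by which diabetes could be checked.

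Amino acids enter the tubule cell across the brush border and leave it towards the blood. Slc6a19 carries neutral amino acids with sodium, and its human gene is mutated in Hartnup disorder. Slc6a18 is its close relative, and in mouse kidney both need the helper protein collectrin, encoded by Cltrn, to reach the membrane. Cystine and the basic amino acids are taken up by a pair of chains joined by a disulfide bond: Slc3a1 encodes the heavy chain and Slc7a9 the light chain, and loss of either causes cystinuria in humans. In the straight part of the mouse proximal tubule Slc3a1 has another light chain, encoded by Slc7a13. Slc1a1 encodes the transporter of glutamate and aspartate. On the basolateral side Slc3a2 encodes a heavy chain shared by the light chains of Slc7a7, which exports basic amino acids and is mutated in human lysinuric protein intolerance, and of Slc7a8, which exchanges neutral ones. Slc6a13 encodes a carrier of GABA, betaine and taurine.

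Upstream sequence is shown for the heavy chain gene that was called in both comparisons with called members, and for the basolateral light chain that ran most strongly against Kap across libraries. RefSeq promoter entries (GRCm38.p6, the same assembly as mm10) matched 8 of the 10 members, all but Slc6a18 and Slc7a13. The 250 bases before the start site are given 5′ to 3′ on the strand of the gene. Capitals mark, in Slc3a1 (plus strand, chr17:85028097-85028346), the letters CAAAGTCCA of a motif bound by the hepatocyte nuclear factor HNF4A, 39 to 31 bases before the start. In Slc7a7 (minus strand, outermost of 5 listed starts, chr14:54417945-54418194) they mark a match to TGATGNAA, the core of the amino acid response element bound by ATF4, 141 to 134 bases before the start. Distances are to the start of the RefSeq promoter entry. In both genes that start lies upstream of the GENCODE gene bounds given below. The 50 bases after it were found in no GENCODE transcript of the gene.
Slc3a1: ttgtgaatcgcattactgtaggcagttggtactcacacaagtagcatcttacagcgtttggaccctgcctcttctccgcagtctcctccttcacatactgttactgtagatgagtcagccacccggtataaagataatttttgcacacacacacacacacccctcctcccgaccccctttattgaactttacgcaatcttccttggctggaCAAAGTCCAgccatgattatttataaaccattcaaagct
Slc7a7: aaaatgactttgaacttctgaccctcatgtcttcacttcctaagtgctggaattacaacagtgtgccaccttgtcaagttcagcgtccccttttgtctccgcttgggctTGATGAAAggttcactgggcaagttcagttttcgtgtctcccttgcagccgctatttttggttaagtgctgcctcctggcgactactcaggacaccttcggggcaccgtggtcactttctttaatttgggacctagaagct
Read on both strands, CAAAGTCCA stood in 0.384% of the 32851 mouse promoter entries and TGATGNAA in 3.45%. Among the members with an entry, Slc3a1 was the single gene with the first motif and Slc7a7 the single gene with the second. Of 7 motifs searched, which also included the HNF1 and androgen response elements, their half-sites and the CCAAT box, these matches were picked for display after all matches were seen. No member held the whole HNF1 site or the whole androgen response element, each of which stood in 0.00913% of the entries. The half-sites GTTAAT and AGAACA, each held by 2 members, stood in 6.43% and 16.1% of the entries, and CCAAT, held by 2 members, in 33.8%. A match describes the letters and does not show that a factor binds there.

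All values were read as FPKM, a unit that no label names. FPKM are per gene length, so on that reading levels may be compared between genes. Read totals were not available and the depth is unknown, and the labels do not say that the 3 samples of a group come from different mice, so the p-values speak of the spread among samples that may be technical replicates. In whole kidney, fewer cells of a type and less RNA per cell cannot be told apart. The summed level of 7 proximal tubule markers was 3850 to 5480 FPKM outside STZ+AOS and 2540, 3670 and 3210 in STZ+AOS. Kap, a gene of the proximal tubule that depends on androgen, separated libraries of the same group: it was at 150876, 145522 and 15798 FPKM in controls 1, 2 and 3 and at 144830, 63552 and 14615 in STZ 1, 2 and 3. Control 3 stood apart from its group, and the STZ libraries were spread from STZ 1, high, to STZ 3, low. Values without control 3 and STZ 1, and without control 3 and STZ 3, are given where they changed a call or moved Slc7a13 strongly. The summed level of 5 adrenal cortex markers was 2430, 113 and 1710 FPKM in STZ+AOS and 892 in control 3, and at most 54.5 in the remaining 14 libraries. The 4 spermatid genes Prm1, Prm2, Tnp1 and Tnp2 summed to 18.2 to 74.3 FPKM in the controls and STZ and to at most 0.18 in the 4 other groups, and their part in the member differences was not tested. Differences are given on the scale of log2(FPKM + 1), ± standard error, from limma with Benjamini-Hochberg adjustment over the 12682 genes, and a gene is said to rise or fall only at an adjusted p under 0.05.

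The members were among the abundant transcripts of the kidney. Mean levels over the 18 libraries ran from 32.3 FPKM for Slc6a13 to 307 FPKM for Slc7a13, that is from the 86.5th to the 98.4th percentile of all entries. The order was Slc7a13, Slc3a1 at 238, Slc3a2 at 215, Slc7a7 at 175, Slc6a19 at 111, Slc6a18 at 104, Slc1a1 at 88.3, Slc7a8 at 84.4, Slc7a9 at 74.8 and Slc6a13. Several neighbours in this order were not separated: Slc6a19 exceeded Slc6a18 in 9 of 18 libraries, Slc1a1 exceeded Slc7a8 in 8 and Slc3a1 exceeded Slc3a2 in 10. Slc3a2 was above Slc7a7, and Slc7a9 above Slc6a13, in each of the 18. Spread over the libraries was widest for Slc7a13 (coefficient of variation 46.0%) and Slc6a19 (42.0%) and narrowest for Slc1a1 (13.6%) and Slc3a1 (15.4%).

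**Figure D1:**
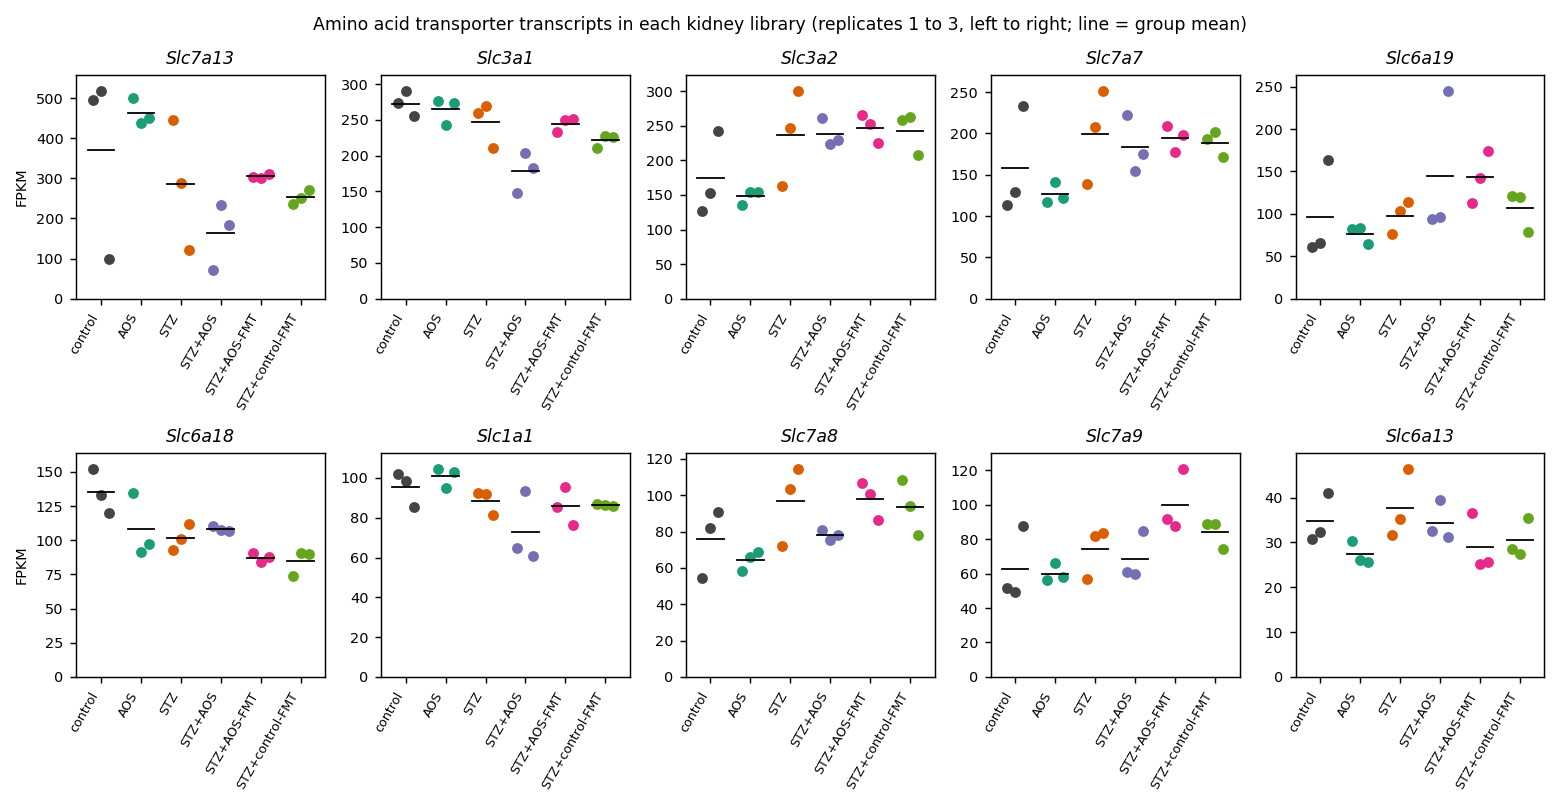
FPKM of the 10 transporter genes (one panel each, y axis from 0) in the 18 kidney libraries, with replicates 1, 2 and 3 from left to right within each group and a line at the group mean. Slc7a13 ran from 70.6 to 518 FPKM with control 3 and STZ 3 far under the other libraries of their groups, while Slc3a2 and Slc7a7 were high in the same libraries.

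The light chain gene Slc7a13 (chromosome 4, 19818725 to 19842218) varied more than any other member. It was at 496, 518 and 99.4 FPKM across the controls, 501, 438 and 450.4 in AOS, and 446, 288 and 121 in STZ. In STZ+AOS it was at 70.6, 234 and 184, in STZ+AOS-FMT at 303, 301 and 311, and in STZ+control-FMT at 235, 252 and 271. The 3 AOS libraries lay above every library of the STZ+AOS and transfer groups, whereas controls and STZ spanned nearly the whole range. Its level followed that of Kap, with a Pearson's r of 0.970 over the 18 libraries on the log2 scale and of 0.976 after group means were removed. The summed level of 3 markers of the straight part of the proximal tubule (Atp11a, Slc22a30 and Cyp7b1) moved with it, at 548, 632 and 150 FPKM across the controls, 572, 407 and 133 in STZ and 89.8, 288 and 255 in STZ+AOS. Slc22a30 was also the gene most correlated with Slc7a13 of 12278 searched (r = 0.984), so it is no independent marker. Cyp7b1 was highest in STZ 2, at 130 FPKM, where Slc7a13 was at 288. Whether the straight part or its RNA content accounts for the Slc7a13 values was not tested.

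The heavy chain gene Slc3a1 (chromosome 17, 85028376 to 85064236) was steadier. It was at 273, 290.3 and 256 FPKM across the controls, 277, 243 and 274 in AOS and 259.9, 269 and 211 in STZ. The level was 148, 204 and 182 in STZ+AOS, 234, 249 and 251 in STZ+AOS-FMT and 211, 228 and 226 in STZ+control-FMT. STZ+AOS thus held the 3 lowest values of the series. Its r with Kap was 0.744 over the 18 libraries.

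The other light chain gene, Slc7a9 (chromosome 7, 35448796 to 35466036), did not follow its heavy chain. It was at 51.6, 49.3 and 87.5 FPKM across the controls, 56.0, 65.8 and 57.7 in AOS, and 57.0, 81.6 and 83.3 in STZ. In STZ+AOS it was at 60.8, 59.95 and 84.8, in STZ+AOS-FMT at 91.8, 87.5 and 120.4, and in STZ+control-FMT at 88.8, 88.9 and 74.0. Control 3 was the highest control, where Slc7a13 had its lowest. The ratio of Slc7a13 to Slc7a9, which does not depend on the scaling between libraries, was 9.62, 10.5 and 1.14 in the controls, 8.95, 6.66 and 7.80 in AOS and 7.84, 3.53 and 1.46 in STZ. It was 1.16, 3.91 and 2.17 in STZ+AOS and 2.58 to 3.67 in the 6 transfer libraries, so the 3 controls spanned the whole range of the series. This ratio was added after the data were seen.

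**Figure D2:**
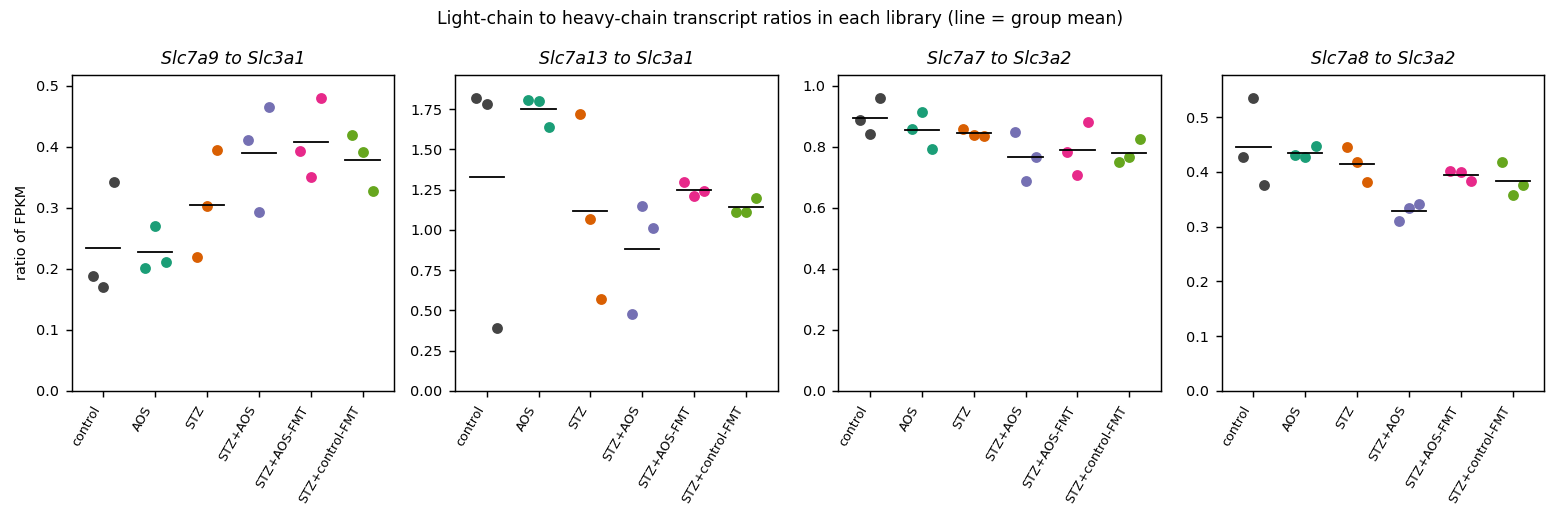
Ratio of light chain to heavy chain FPKM (y axes from 0) in each library for 4 pairs, with group means as lines. The Slc7a7 to Slc3a2 ratio stayed between 0.688 and 0.960, while the Slc7a13 to Slc3a1 ratio ran from 0.389 to 1.82.

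Of the apical sodium-coupled carriers, Slc6a19 (chromosome 13, 73679745 to 73704865) was at 60.8, 65.6 and 163 FPKM across the controls, 81.6, 83.3 and 64.5 in AOS and 76.8, 103 and 113 in STZ. It reached 94.1, 96.6 and 245 in STZ+AOS, 112, 142 and 174 in STZ+AOS-FMT and 121, 119.6 and 79.1 in STZ+control-FMT. All groups next to each other in the order of means overlapped. STZ+AOS 3 had the highest value of the series. Of the listed markers of the early proximal tubule, the lactate carrier Slc5a12 was likewise at its highest there, at 298 FPKM against 114 and 161 in the other libraries of its group, and the glucose carrier Slc5a2 was not, at 186 against 184 and 202.

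Slc6a18 lies directly beside Slc6a19 (chromosome 13, 73661752 to 73678023) and had a different pattern, with an r between the pair of -0.339 over the 18 libraries. It was at 152, 133 and 120.2 FPKM across the controls, 135, 91.3 and 97.5 in AOS, 92.9, 101 and 112 in STZ and 111, 108 and 107 in STZ+AOS. In the transfer groups it was at 90.6, 83.7 and 87.4 (STZ+AOS-FMT) and 73.9, 90.7 and 90.0 (STZ+control-FMT). The controls lay above every library given STZ, and the transfer groups lay below STZ without overlap. No other member had the controls at the top of the order with no overlap with the next group.

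Slc1a1 (chromosome 19, 28835049 to 28913960), the glutamate carrier, was at 102, 98.5 and 85.6 FPKM across the controls, 104, 94.8 and 103 in AOS and 92.3, 91.7 and 81.2 in STZ. It was at 64.8, 93.2 and 60.98 in STZ+AOS, 85.6, 95.3 and 76.3 in STZ+AOS-FMT and 86.7, 86.4 and 86.1 in STZ+control-FMT. STZ+AOS 1 and 3 were the lowest of the series, and STZ+AOS 2 lay within the range of the other groups. Those 2 libraries also had Cyp11b1, the adrenal enzyme of corticosterone synthesis, at 316 and 276 FPKM, against 14.3 in STZ+AOS 2.

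On the basolateral side the heavy chain Slc3a2 and its light chain Slc7a7 moved together, with an r of 0.946, the highest of the 45 pairs of members. Slc3a2 (chromosome 19, 8706882 to 8723369) was at 127, 153 and 242 FPKM across the controls, 136, 154 and 154 in AOS and 162, 247 and 300.2 in STZ. It lay between 208 and 266 in the 9 libraries of the STZ+AOS and transfer groups. Slc7a7 (chromosome 14, 54369442 to 54417780) was at 113, 129 and 233 in the controls, 117, 141 and 122 in AOS and 139, 207 and 251 in STZ, and between 154 and 223 in those 9. The 3 AOS libraries, controls 1 and 2 and STZ 1 were the 6 lowest of the series for both genes, and the same libraries had Kap at 144521 FPKM or more.

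The second light chain of that pair, Slc7a8 (chromosome 14, 54722209 to 54781946), was at 54.5, 81.9 and 91.0 FPKM across the controls, 58.4, 65.9 and 68.9 in AOS and 72.3, 104 and 114 in STZ. It was at 81.1, 75.2 and 78.3 in STZ+AOS and from 78.2 to 108 in the transfer groups. The ratio of Slc7a8 to Slc3a2 was 0.310, 0.335 and 0.342 in STZ+AOS, below each of the 15 libraries of the other groups, where it was 0.358 to 0.535. This ratio was chosen as a quantity with earlier results known and was not tested.

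Slc6a13 (chromosome 6, 121300227 to 121337733), the least abundant member, was at 30.8, 32.3 and 41.1 FPKM across the controls, 30.3, 26.2 and 25.7 in AOS, 31.7, 35.2 and 46.3 in STZ and 32.5, 39.4 and 31.2 in STZ+AOS. It was at 36.5, 25.2 and 25.6 in STZ+AOS-FMT and at 28.6, 27.4 and 35.4 in STZ+control-FMT. All neighbouring groups in its order of means overlapped.

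Across libraries the members fell on opposite sides of Kap. Slc7a13, Slc3a1 and Slc1a1 went with it (r of 0.970, 0.744 and 0.706), and Slc7a7, Slc3a2, Slc6a13, Slc6a19, Slc7a8 and Slc7a9 against it (r from -0.791 to -0.343), whereas Slc6a18 had an r of -0.025. With group means removed the signs of those 9 were the same, at -0.903 for Slc7a7 and -0.823 for Slc3a2, and Slc6a18 was at 0.001. These correlations describe 18 libraries that share their groups and, in every library, one total to which the FPKM were scaled and which includes Kap.

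**Figure D3:**
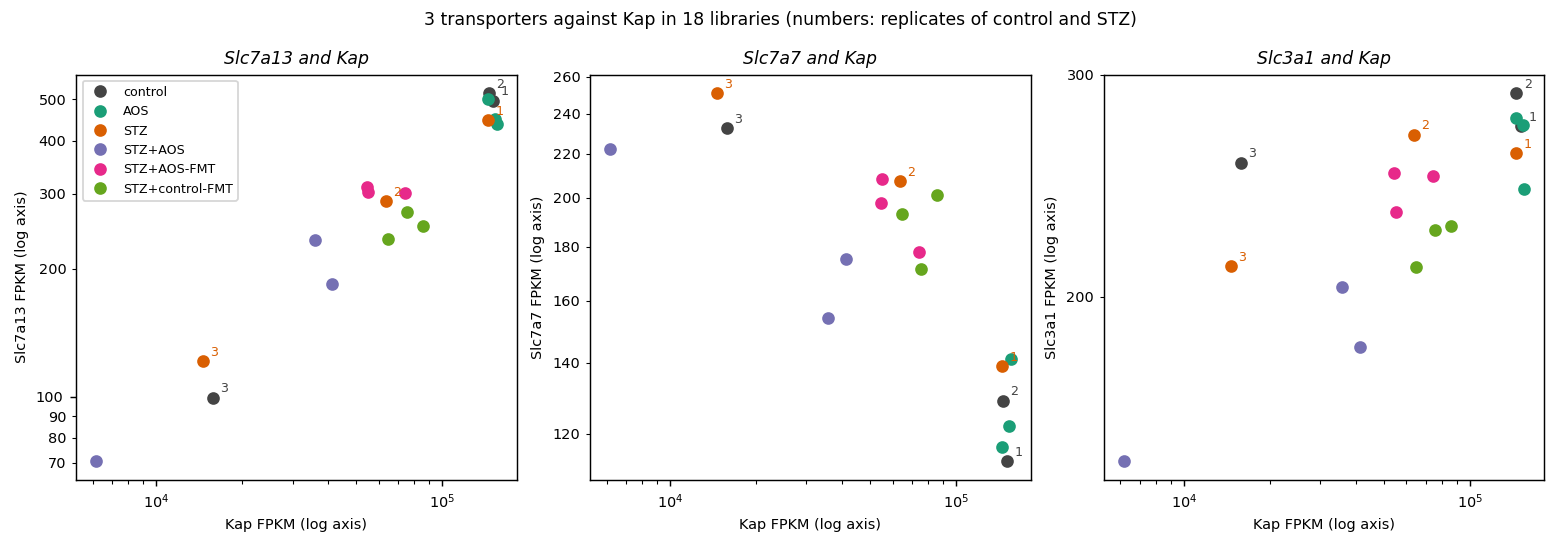
FPKM of Slc7a13, Slc7a7 and Slc3a1 against FPKM of Kap (both axes logarithmic) in the 18 libraries, coloured by group, with the replicate number beside controls and STZ. Controls 1 and 2, STZ 1 and AOS sit together at the right, and control 3 sits near STZ 3 at the left.

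**Figure D4:**
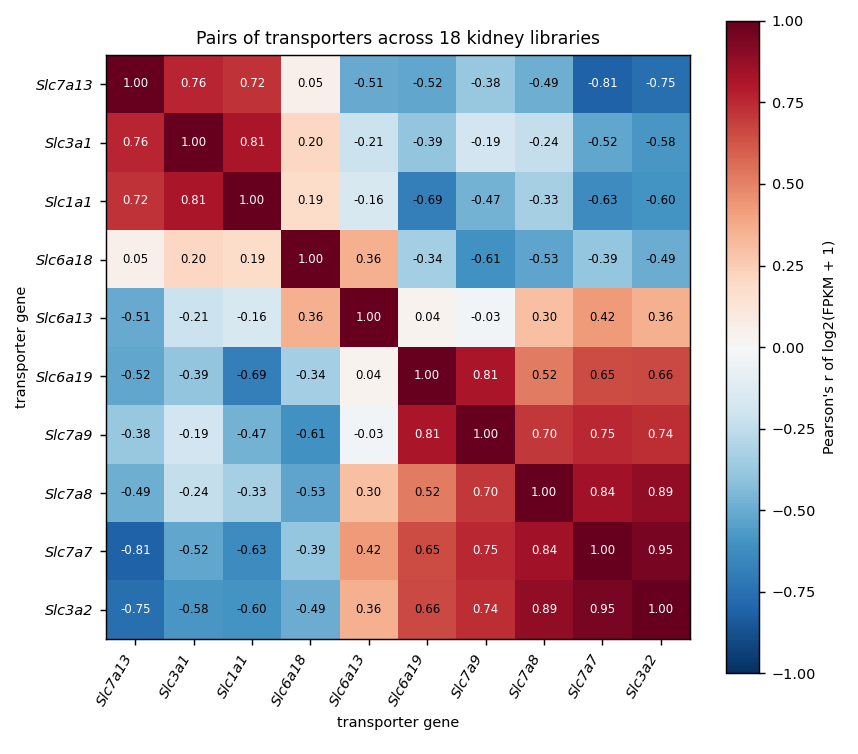
Pearson's r of log2(FPKM + 1) for each pair of members over the 18 libraries, from -1 (blue) to 1 (red). Slc7a13, Slc3a1 and Slc1a1 form one block (0.725 to 0.813) and Slc7a7, Slc7a8 and Slc3a2 another (0.842 to 0.946).

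For each member the tested genes with the most similar profile over the 18 libraries were found among 12278 genes with a standard symbol. Slc7a13 was closest to Slc22a30 (r = 0.984), Cyp2j13 (0.978) and Slc22a28 (0.974), and Slc3a1 to Cyp2j11 (0.941), Slc16a4 (0.928) and Calml4 (0.922). Slc7a7 and Slc3a2 had the same nearest gene, Npl, which encodes an enzyme that splits sialic acid (0.954 and 0.942), followed by Kynu (0.940) and Prkag2 (0.927) for Slc7a7 and by Creg1 (0.941) and the creatine carrier Slc6a8 (0.934) for Slc3a2. Slc7a9 was closest to the carbonic anhydrase gene Car14 (0.945), Nox4 (0.937) and Asl (0.919), and Slc6a19 to Abcd4 (0.913), Cyp27a1 (0.909) and Pnpla7 (0.907). The nearest genes were Atp6v1g1 (0.915), Gpr160 (0.886) and Slc43a2 (0.859) for Slc7a8, and Abcd3 (0.918), Cckar (0.895) and Bend5 (0.895) for Slc1a1. Likeness was lower for Slc6a18, with Sppl2a (0.831), Cdkl1 (0.825) and Cmtm4 (0.785), and for Slc6a13, with Gstm2 (0.837), Crb3 (0.816) and St3gal6 (0.816).

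For the effect of STZ on its own, STZ was set against control, and with all libraries none of the members was called. The background was also 0 of 12682 genes called (0%), with 161 genes and 1 member, Slc6a18, at an unadjusted p under 0.05. Slc6a18 went from 135 ± 15.9 FPKM (SD, n = 3) to 102 ± 9.47, which is -0.40 ± 0.13 on the log2 scale (limma adjusted p = 1). It was the 1 member whose groups did not overlap, lower in STZ, as for 2.08% of all genes, and 1.14% of all genes were higher without overlap. Slc3a2 differed by 0.45 ± 0.22, Slc7a7 by 0.36 ± 0.24, Slc7a8 by 0.35 ± 0.19 and Slc7a13 by -0.24 ± 0.57. These values depended on which libraries were compared. Without control 3 and STZ 1, which leaves controls of high Kap against STZ libraries of lower Kap, the differences were 0.96 for Slc3a2, 0.91 for Slc7a7, 0.70 for Slc7a9, 0.69 for Slc7a8 and -1.43 for Slc7a13, and 4 members were called, with 7.03% of all genes called higher and 1.79% lower. That choice takes out the control with the most Slc7a7 and Slc3a2 and the STZ library with the least of both. It therefore fixes a larger difference, from which an effect of STZ cannot be read. Without control 3 and STZ 3, both low in Kap, the differences were 0.52, 0.49, 0.43, 0.37 and -0.50 in the same order, and 0 members and 0 genes were called. Both choices were made after the data were seen, and dropping any single library gave 0 called members.

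Without STZ, AOS was set against control, and limma called none of the members. The calls over all genes were 9, each lower in AOS (0.071%). An unadjusted p under 0.05 was reached by 521 genes and 1 member. The largest member difference was that of Slc7a13, with 371 ± 235 FPKM in the controls and 463 ± 33.5 in AOS, a log2 difference of 0.65 ± 0.57 (adjusted p = 0.817) that was -0.13 without control 3. Slc6a13 was lower in each AOS library than in any control, by -0.32 ± 0.17 (adjusted p = 0.817), as were 10.2% of all genes, while 2.89% were higher without overlap and no member was. Slc6a18 differed by -0.33 ± 0.13 (adjusted p = 0.817).

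In the presence of STZ, AOS was examined by setting STZ+AOS against STZ. Slc3a1 fell from 247 ± 30.9 FPKM (SD, n = 3) to 178 ± 28.0, a log2 difference of -0.47 ± 0.12 (adjusted p = 0.0455), and was the 1 of 10 members called, against 4.53% of all genes (3.44% higher and 1.1% lower). It was also the 1 member whose groups did not overlap, lower in STZ+AOS as were 4.01% of all genes, while 20.2% were higher without overlap. The median of all genes was 0.19 in this comparison, and relative to it Slc3a1 differed by -0.66. The split of the calls depended on the scaling, with 436 higher and 139 lower as reported, 2292 and 190 with Kap taken out of the total, 215 and 608 under median-of-ratios rescaling and 37 and 91 under quantile normalization. Its call was lost without STZ 1 (adjusted p = 0.213), STZ 2 (0.116), STZ+AOS 1 (0.143) or STZ+AOS 3 (0.0612), after quantile normalization (0.107), with library weights (0.444), with only the groups compared (0.319) and without control 3 and STZ 1 (0.106). Without control 3 and STZ 3 it passed (-0.58, adjusted p = 0.00334), as did Slc7a13 (-1.30, 0.0126), beside 32.7% of all genes higher and 6.76% lower. STZ 3 held the lowest STZ value of both genes, so that choice, made after the data were seen, fixes larger differences and is no support for them. Without the libraries with Cyp11b1 above 100 FPKM the difference of Slc3a1 was -0.27, and STZ+AOS was then left with 1 library, assumed to vary like the other groups.

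Slc1a1, the next of the members by p, differed by -0.30 ± 0.13 (adjusted p = 0.136) and passed without STZ+AOS 2 (0.0158). Slc7a13 differed by -0.78 ± 0.57 (adjusted p = 0.334), with a 95% interval from -2.0 to 0.44, and Slc6a19 by 0.43 ± 0.38 (0.419). The remaining 6 lay between -0.28 and 0.09. The median over the members was -0.11.

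The same STZ+AOS libraries were also set against AOS, where AOS is shared and STZ is not, and 4 members passed. Slc7a13 fell from 463 ± 33.5 to 163 ± 83.9 FPKM, a log2 difference of -1.67 ± 0.57 (adjusted p = 0.0294). Slc3a1 fell from 265 ± 18.6 to 178 ± 28.0, by -0.58 ± 0.12 (adjusted p = 0.00615), and Slc1a1 from 101 ± 5.16 to 73.0 ± 17.6, by -0.48 ± 0.13 (0.0125). Slc3a2 rose from 148 ± 10.5 to 238 ± 20.5, by 0.68 ± 0.22 (0.0229). The transcripts of the apical heavy chain, one of its light chains and the glutamate carrier were thus lower, and the basolateral heavy chain was higher, and in none of the 4 did the groups overlap.

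Against the background these counts are not a result about the members, since 46.5% of all genes were called here, 39.3% higher and 7.18% lower, beside 1 of 10 members higher and 3 of 10 lower. The median of all genes was 0.29, and relative to it the differences were -1.96 for Slc7a13, -0.87 for Slc3a1, -0.78 for Slc1a1 and 0.39 for Slc3a2. The split of the calls over all genes depended on the scaling, with 4985 higher and 910 lower as reported, 1407 and 1951 under quantile normalization and 1681 and 2499 under median-of-ratios rescaling, which shifted the median to -0.01. Slc7a13, Slc3a1 and Slc1a1 were called in the same direction under both scalings, and Slc3a2 was lost under median-of-ratios rescaling (0.33, adjusted p = 0.131). Slc7a7 was higher without overlap, by 0.52 ± 0.24 (adjusted p = 0.0835), as were Slc6a19 by 0.77 ± 0.38 (0.102), Slc6a13 by 0.31 ± 0.17 (0.135) and Slc7a8 by 0.28 ± 0.19 (0.223), and 5 members were higher without overlap against 49.7% of all genes, and 3 lower against 9.75%. The sign of Slc6a13 turned under median-of-ratios rescaling (-0.03). Slc7a9 differed by 0.18 ± 0.21 and Slc6a18 by 0.03 ± 0.13.

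Leaving out 1 library kept the calls of Slc3a1 and Slc1a1 in each of the 6 cases, but Slc1a1 lost its call with library weights (adjusted p = 0.0507) and with only the groups compared (0.0535). Without control 3 and STZ 1 Slc7a7 (adjusted p = 0.00513) and Slc6a19 (0.0464) also passed, which makes 6 members. Those libraries lie outside this comparison and enter it through the spread shared by the groups. The share of all genes called in that fit is not given here, so the 6 are not a result about the members. Slc7a13 lost its call without AOS 1 (adjusted p = 0.0699), AOS 2 (0.0634), AOS 3 (0.0658) or STZ+AOS 1 (0.135), and Slc3a2 without AOS 1 (0.067), AOS 3 (0.0511) or STZ+AOS 1 (0.0749). STZ+AOS also carried the adrenal markers and the lowest proximal tubule marker sums, and 3 injured tubule markers (Havcr1, Lcn2 and Krt20) summed to 1210, 99.5 and 35.8 FPKM there, against 4.16 to 5.88 in AOS and 56.8 in control 3. Their part in these differences was not tested. Without STZ+AOS 1, STZ+AOS 3 and control 3, the libraries of high Cyp11b1, STZ+AOS was left with 1 library. The differences were then -0.98 for Slc7a13, -0.37 for Slc3a1, -0.11 for Slc1a1 and 0.60 for Slc3a2, and 1 library cannot show whether a call holds.

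**Figure D5:**
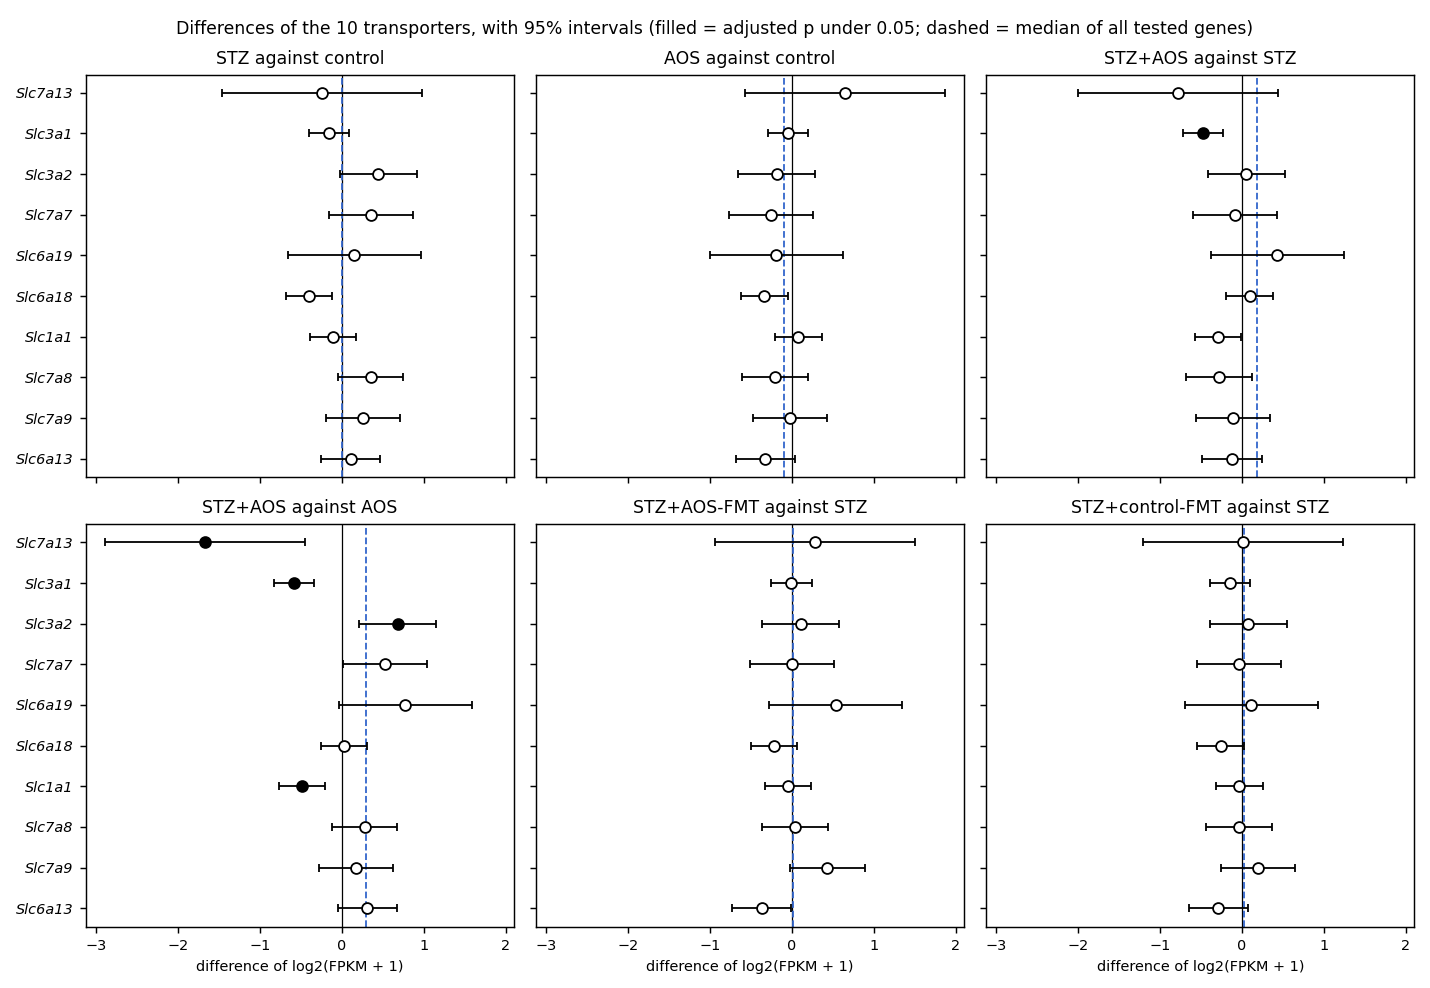
Differences of log2(FPKM + 1) for the 10 members in 6 comparisons, with 95% intervals from limma, filled where the adjusted p is under 0.05 and with a dashed line at the median of all tested genes. Filled points appear for Slc3a1 in STZ+AOS against STZ and for Slc7a13, Slc3a1, Slc3a2 and Slc1a1 in STZ+AOS against AOS.

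The interaction, which asks whether the effect of AOS differed with and without STZ, called 0 of 12682 genes (0%) and 0 members, with 4240 genes and 2 members at an unadjusted p under 0.05. After rescaling to the total without Kap 755 genes were higher and 57 lower, with no member among them. Slc7a13 had an interaction of -1.43 ± 0.81 (adjusted p = 0.215), Slc3a1 of -0.43 ± 0.16 (0.104) and Slc6a18 of 0.43 ± 0.19 (0.132). For Slc7a13 the value was -0.23 without control 3 and STZ 1 (adjusted p = 0.867), -1.17 without control 3 and STZ 3 (0.114) and 0.95 with Cyp11b1 as a covariate (0.999). It was 0.04 without the libraries of high Cyp11b1, which left 1 library in STZ+AOS. The call of Slc3a1 with STZ and its absence without STZ are therefore not shown to differ. It passed without STZ 3 (adjusted p = 0.0316), and Slc1a1 passed without STZ+AOS 2 (0.0388).

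Each transfer group was set against STZ, and neither comparison called a member. They share the STZ libraries. In STZ+AOS-FMT 14 genes were called, all lower (0.11%), with 479 at an unadjusted p under 0.05, and in STZ+control-FMT 13, all lower (0.103%), with 281. The 4 spermatid genes were among the called genes of both. Slc7a9 was higher in each STZ+AOS-FMT library than in any STZ library, at 99.9 ± 17.9 FPKM against 73.9 ± 14.7, a log2 difference of 0.44 ± 0.21 (adjusted p = 1) with a 95% interval from -0.02 to 0.89, as were 5.5% of all genes. Slc6a18 was lower without overlap in both transfer groups, by -0.22 ± 0.13 and -0.26 ± 0.13 (adjusted p = 1 for each), as were 2.9% and 2.22% of all genes. In STZ+control-FMT 4.19% of all genes were higher without overlap and no member was. Slc6a13 differed by -0.37 ± 0.17 in STZ+AOS-FMT and by -0.29 ± 0.17 in STZ+control-FMT (adjusted p = 1 for each). For Slc7a13, whose STZ libraries were so far apart, the 95% intervals ran from -0.93 to 1.51 in STZ+AOS-FMT and from -1.21 to 1.23 in STZ+control-FMT. In STZ+AOS-FMT its difference was 0.70 (adjusted p = 0.537) without control 3 and STZ 1 and -0.23 (0.939) without control 3 and STZ 3, and that of Slc7a9 was 0.26 (0.559) and 0.53 (0.457). In STZ+control-FMT the Slc7a13 values were 0.43 (0.837) and -0.50 (0.765).

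Set against each other, the transfer groups asked whether the AOS10mg/kg label of the transfer mattered. Limma called 0 of 12682 genes (0%) and 0 members, with 209 genes at an unadjusted p under 0.05. Slc3a1, at 245 ± 9.6 and 222 ± 9.0 FPKM, was higher in each STZ+AOS-FMT library than in any STZ+control-FMT library, as were Slc7a13, at 305 ± 4.97 and 253 ± 18.1, and 6.39% of all genes, while 4.85% were lower without overlap and no member was. The log2 differences were 0.14 ± 0.12 and 0.27 ± 0.57 (adjusted p = 1 for each). The 95% interval for Slc3a1 was -0.10 to 0.39. The standard error of Slc7a13 is pooled over groups and is set mostly by the spread within controls, STZ and STZ+AOS.

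Of 29 other amino acid transporter genes, chosen with earlier results known, 23 passed the filter. In STZ+AOS against AOS 12 rose and 4 fell, beside 39.3% of all genes higher and 7.18% lower, with a median of 0.93 beside 0.29. Of the 23, 6 rose and 4 fell after quantile normalization, and 8 and 4 under median-of-ratios rescaling. Over all genes more were lower than higher under both scalings, as given above. Without the libraries of high Cyp11b1 STZ+AOS was left with 1 library, so lost calls there say little. With Cyp11b1 as a covariate 0 of the list were called. Cyp11b1 was higher in each STZ+AOS library than in any AOS or STZ library, so the covariate takes up part of these differences. The largest changes were those of Slc6a12, the betaine and GABA carrier of the medulla (1.92 ± 0.68, adjusted p = 0.0337), Slc38a2, a sodium-coupled carrier of small neutral amino acids induced by amino acid shortage (1.73 ± 0.29, 0.00590), Slc7a1, the widespread carrier of basic amino acids (1.46 ± 0.29, 0.00616), and Slc7a6, a further light chain of Slc3a2 (1.27 ± 0.28, 0.00706). Slc6a12, Slc7a1 and Slc7a6 were near the floor, with means over the 18 libraries of 2.87, 1.79 and 1.60 FPKM. The call of Slc6a12 was lost under 9 of 20 alternatives. With only genes of a mean of at least 5 FPKM tested, 4 of the list rose and 4 fell, and the share of all genes called in that fit is not given here. In AOS the Slc38a2 level was 10.7, 9.38 and 8.79 FPKM, and in STZ+AOS it was 44.7, 29.2 and 30.7. In STZ+AOS against STZ 1 rose, Slc38a2 (1.24 ± 0.29, adjusted p = 0.0419), and 1 fell, Slc6a20b (-0.76 ± 0.17, 0.0370), whose 3 STZ+AOS libraries (39.8, 56.6 and 45.5 FPKM) lay below those of STZ (97.4, 83.7 and 62.7), beside 3.44% of all genes higher and 1.1% lower. Both calls were lost with library weights, with only the groups compared, when replicate 1 or 2 of STZ or replicate 1 or 3 of STZ+AOS was dropped, without control 3 and STZ 1, without the libraries of high Cyp11b1 and with Cyp11b1 as a covariate (adjusted p from 0.0573 to 0.73), and that of Slc6a20b also after quantile normalization (0.0571). None of the 23 was called in the other 6 comparisons.

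Of 10 listed symbols of partners, scaffolds and peptidases of the brush border, 8 were in the table and tested. In STZ+AOS against AOS 6 fell and 0 rose, beside 7.18% of all genes lower and 39.3% higher, with a median of -0.52 beside 0.29. The 7 proximal tubule markers were all lower there too, 2 of them called, with a median of -0.32, and their part in these values was not tested. The list had 3 called genes, all lower, without AOS 2, AOS 3 or STZ+AOS 1, and the shares of all genes called in those fits are not given here. Without the libraries of high Cyp11b1 STZ+AOS was left with 1 library, so lost calls there say little. Ggt1, the gamma-glutamyl transferase, went from 822 to 389.5 FPKM (-1.08 ± 0.31, adjusted p = 0.0150), the scaffold Pdzk1 from 618 to 357 (-0.81 ± 0.15, 0.00590), the aminopeptidase Anpep from 91.6 to 61.9 (-0.61 ± 0.21, 0.0320) and the dipeptidase Dpep1 from 123 to 82.1 (-0.57 ± 0.18, 0.0228). Pdzk1 also fell in STZ+AOS against STZ (-0.63 ± 0.15, adjusted p = 0.0419), a call lost under 10 of 21 alternatives, the same as for Slc6a20b, and in no other comparison was a gene of the list called. Cltrn, the collectrin that the Slc6a19 and Slc6a18 proteins need, was the most abundant of the list, at 1615 FPKM in AOS and 1169 in STZ+AOS (-0.47 ± 0.15, adjusted p = 0.0191).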

How the data were processed

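RNA of 18 kidney samples of ICR mice was sequenced, 3 in each of 6 groups, with groups and replicate numbers taken from the labels. Per the submitters' processing notes the tools and build were Bowtie 0.12.2 and mm10. No source used here names the counter, annotation or filters. The values the authors deposited were read as FPKM, which no label names: value times exonic length summed to totals that varied by 0.941% between libraries, and plain sums by 5.47%. Read totals are unknown, so no counting interval can be given. Each library had 11407 to 12607 genes at 1 FPKM or more.

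The filter kept the 12682 genes that reached 1 FPKM in 3 or more libraries, a pseudocount of 1 was added, and log2 values were fitted with limma 3.58.1 in R 4.3.3, with trend and robust options, 1 mean per group over all 18 libraries, and Benjamini-Hochberg adjustment at 0.05. With 3 samples a group, exact permutation p-values stop at 0.1, so none were computed. The fit was tested on simulated data. Coordinates are from GENCODE M21 (mm10). The members, lists, tests and ratios were chosen with earlier results of these data known. Named were all 10 members, list genes past the threshold (at most 4 per comparison, by size; Cltrn was added after its values were seen), and the 3 genes most correlated with each member. The main fit did not pair samples by replicate number, and whether the numbers pair them is not known. Alternatives were other scalings, filters, pseudocounts, limma options, a fit of only the groups compared, a block for the replicate number, and each library of the groups compared left out in turn. Added after the data were seen were leaving out control 3 and STZ 1, leaving out control 3 and STZ 3, leaving out libraries with Cyp11b1 above 100 FPKM, and Cyp11b1 as a covariate.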

Additional observations from a re-analysis of the deposited data

How the results depend on the processing

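Of 80 member differences (10 genes in 8 comparisons), 64 stayed on the same side of the threshold under all alternatives run, 5 lost a call under at least 1 and 11 gained one. Of the 75 that were not called, 49 changed sign somewhere, so their directions are not settled. With Cyp11b1, highest in STZ+AOS, as a covariate, Slc3a2 turned to -0.0442 and Slc7a13 to 0.53 in STZ+AOS against AOS (adjusted p = 0.993 and 0.963), and 0 members were called there. Cyp11b1 was at 0.06 to 0.15 FPKM in AOS and at 14.3 to 316 in STZ+AOS. The covariate thus nearly follows this contrast, and lost calls under it say little about the members. Leaving out the high-Cyp11b1 libraries left 1 library in STZ+AOS, so lost calls there say little as well. The cause of these changes was not tested. In STZ+AOS against STZ the count went from 1 to 0 with quantile normalization, library weights, only the groups compared, control 3 and STZ 1 left out, high-Cyp11b1 libraries left out, or the covariate, and to 2 with control 3 and STZ 3 left out. In STZ against control it went from 0 to 4 with control 3 and STZ 1 left out. With 1 library left out it ranged from 0 to 2 (STZ+AOS against STZ), 2 to 4 (STZ+AOS against AOS) and 0 to 1 (interaction). The replicate number as a block changed no member call (Slc3a1 at -0.47, limma adjusted p = 0.0372, in STZ+AOS against STZ). Of 45 same-numbered pairs 15 had a correlation of deviations above 0.1. The median was -0.004 and the highest 0.667, between control 3 and STZ 3. These values cannot tell whether the numbers pair the samples. Over all genes the block moved the calls in STZ+AOS against STZ from 436 higher and 139 lower to 903 and 213. Across all alternatives the counts over all genes ranged from 0 to 4102 higher and 0 to 848 lower there, 0 to 6423 and 0 to 2499 in STZ+AOS against AOS, 0 to 885 and 0 to 225 in STZ against control, 0 to 6 and 0 to 39 in AOS against control, 0 to 5 and 0 to 173 in STZ+AOS-FMT against STZ, 0 to 2 and 0 to 155 in STZ+control-FMT against STZ, and 0 to 2580 and 0 to 462 for the interaction. None was called between the transfer groups under any alternative. The unknown depth limits all differences near 0.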

Other observations

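Genes induced when amino acids run short or by cell stress through ATF4 were listed as a companion set of 14, all tested. In STZ+AOS against AOS 11 rose and 1 fell, with a median log2 difference of 1.19 beside 0.29 for all genes, where 39.3% of all genes rose. The largest were the growth inhibitor gene Ddit4, at 15.2, 16.9 and 97.6 FPKM in STZ+AOS and 4.60, 4.73 and 8.18 in AOS (2.20 ± 0.56, limma adjusted p = 0.00959), the stress protein gene Nupr1 (1.99 ± 0.58, 0.0157), the transcription factor gene Atf3 (1.90 ± 0.55, 0.0157) and Asns, the asparagine synthetase (1.35 ± 0.30, 0.00711). Shmt2, a mitochondrial serine enzyme, fell from 178 to 115 FPKM (-0.66 ± 0.17, 0.00962). Of the 14, 7 rose and 2 fell after quantile normalization, and likewise 7 and 2 under median-of-ratios rescaling. Over all genes more were lower than higher under both scalings, as given above. With only genes of a mean of at least 5 FPKM tested, 6 rose and 1 fell, and the share of all genes called in that fit is not given here. Without the libraries of high Cyp11b1 STZ+AOS was left with 1 library, so lost calls there say little. With Cyp11b1 as a covariate none was called, but Cyp11b1 was higher in each STZ+AOS library than in any AOS library, so the covariate takes up part of these differences. In STZ+AOS against STZ 13 of 14 were higher, beside 73.6% of all genes, with a median of 0.74 beside 0.19, but none passed, the smallest p being that of Asns (1.00 ± 0.30, adjusted p = 0.0579), and in the 6 other comparisons none was called.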
